A study of Mus with 12 samples.

Results

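Administration of an antibody to PDL1 was contrasted with its absence over all 12 tumour libraries of the series, 6 against 6. The 6 libraries with the antibody came from the 3 mice that received anti-PDL1 and the 3 mice that received anti-PDL1 together with anti-CTLA4, and the 6 libraries without it came from the 3 control IgG mice and the 3 anti-CTLA4 mice. Presence of the anti-CTLA4 antibody was kept as a block, so that each pair of groups being compared differed in the PDL1 antibody alone. Members were chosen by the treatment labels, and all 12 of 12 libraries and all 770 genes of the panel entered the contrast. Every mouse carried a MYC-driven hepatocellular carcinoma (MYC-HCC), and each library was total RNA of 1 formalin-fixed, paraffin-embedded liver tumour read on the nCounter mouse IO360 immuno-oncology panel, a hybridization assay that counts fluorescent barcodes. The labels used here give no strain, age, antibody dose, treatment time or batch, nor the way in which MYC was expressed.

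PDL1, the product of Cd274, is a surface ligand that tumour cells and myeloid cells display, largely in response to interferon-gamma, and that restrains T cells through the receptor PD-1 (Pdcd1). An antibody against PDL1 frees PD-1 on T cells in the tissue, whereas CTLA4 competes with the costimulatory receptor CD28 for CD80 and CD86, mainly while T cells are being primed. In liver tumours, macrophages and hepatocytes are both large sources of RNA, and macrophages carry PDL1 themselves.

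Values are normalized counts as the authors deposited them, with low values set to 20. A gene listed at 20 is at or under the limit of its library, which lay between 20 and 52.5 normalized counts, and it has no measured level there. Of the 770 genes, 519 were above 20 in all 12 libraries and 25 were at 20 in all 12. Recovered counts per library totalled 439149 to 864464, and 49 to 210 genes per library lay at the floor. The number of floored genes was 19.2 higher on average with the PDL1 antibody (exact permutation within the CTLA4 blocks over 400 relabellings, two-sided p = 0.455, smallest possible p = 0.005), and the normalization factor was 0.963 times that without it (p = 0.885, same exact test). That average joins blocks that went opposite ways. Floored genes numbered 57, 49 and 91 under IgG and 137, 151 and 125 under anti-PDL1, without overlap. They numbered 144, 210 and 113 under anti-CTLA4 and 128, 154 and 84 under the combination. Liver identity was plain in every library: Serpina1a, which encodes the hepatocyte protease inhibitor alpha-1-antitrypsin, ranged from 2634 to 99914 normalized counts, and all 9 panel genes of the hepatocyte list were above the floor in all 12. The hepatocyte score, the mean log2(value + 1) of those 9 genes, stood at 13.68 in anti-PDL1 mouse 2, 13.62 in anti-CTLA4 mouse 2 and 13.15 in anti-CTLA4 mouse 1, against 10.63 to 12.38 in the other libraries. Values given without these 3 libraries are marked as such, and leaving them out keeps anti-CTLA4 mouse 3 as the only tumour of its group.

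No gene of 770 passed an adjusted p of 0.05 in the 6 against 6 contrast with limma (0.00%), and the smallest adjusted p was 0.308. At an unadjusted p under 0.05, 83 genes (10.8%) differed, 41 of them higher (5.32%) and 42 lower (5.45%) with the PDL1 antibody. Log2 fold changes were above 0 for 348 genes (45.2%) and below 0 for 397. These shares are the background for the list counts below. Among the 519 genes above the floor in all libraries the higher genes prevailed, 37 (7.13%) against 14 lower (2.70%), and 28 of the 42 lower genes held at least 1 library at the floor. Centring each library on the median of those 519 genes turned the split to 30 higher against 67 lower and moved the median log2 fold change of all genes from -0.02 to -0.20. The 95% confidence interval of a log2 fold change reached, at the median, 0.66 to either side over all genes. For a typical gene an observed change under 1.58-fold thus did not reach an unadjusted p of 0.05 with these 12 mice. Passing the adjusted threshold took more: H2-Aa at 4.03-fold had an adjusted p of 0.308 in limma. Log2 fold changes exceeded 1 in size for 21 genes, 20 of them higher with the antibody. Because nothing passed, the levels below are given as values, and the adjusted p of every gene in this contrast, from limma, was 0.308 or higher.

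Among the genes of smallest p that were higher with the PDL1 antibody were those of the MHC class II pathway, which loads peptides for CD4 T cells in macrophages, dendritic cells and B cells. Ctss, the gene of cathepsin S, the protease that trims the invariant chain, stood at 363, 409 and 314 in the IgG tumours, 720.0, 2979 and 1227 under anti-PDL1, 949, 541 and 553 under anti-CTLA4 and 1644, 1246 and 992 normalized counts under both antibodies. Its groups did not overlap on either side of the block, and anti-PDL1 mouse 2 was far above all others. The log2 fold change was 1.44 (SE 0.35, 2.72-fold, 95% interval 1.58 to 4.67, adjusted p = 0.308). H2-Aa, which encodes the alpha chain of the class II molecule I-A, had values of 316, 339.6 and 565 under IgG, 809, 8043 and 3055 under anti-PDL1, 2626, 843 and 867 under anti-CTLA4 and 3610.3, 3206 and 2187 under the combination. All IgG tumours lay below all anti-PDL1 tumours, while anti-CTLA4 mouse 1 exceeded 1 combination tumour. H2-Aa thus gave a log2 fold change of 2.01 (SE 0.57, 4.03-fold, 95% interval 1.68 to 9.67).

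The class II list had 9 measured members, of which 8 had a log2 fold change above 0 and 4 were higher at an unadjusted p under 0.05, where the background over all genes was 5.32%. None passed the adjusted threshold. Besides Ctss and H2-Aa these were H2-Ab1, the beta chain of I-A, at 2.41 (SE 0.69), and Cd74, the invariant chain, at 1.80 (SE 0.64), both chosen after their values were seen. The remaining members were smaller in difference: H2-DMa, a peptide-exchange chaperone, gave 0.66, H2-Eb1 0.30, and H2-DMb1 was at 20 in all 12 libraries. The list median was 0.66 against -0.02 over all genes, and 0.27 without anti-PDL1 mouse 2. It was 0.94 without and 0.67 with the CTLA4 antibody.

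**Figure D1:**
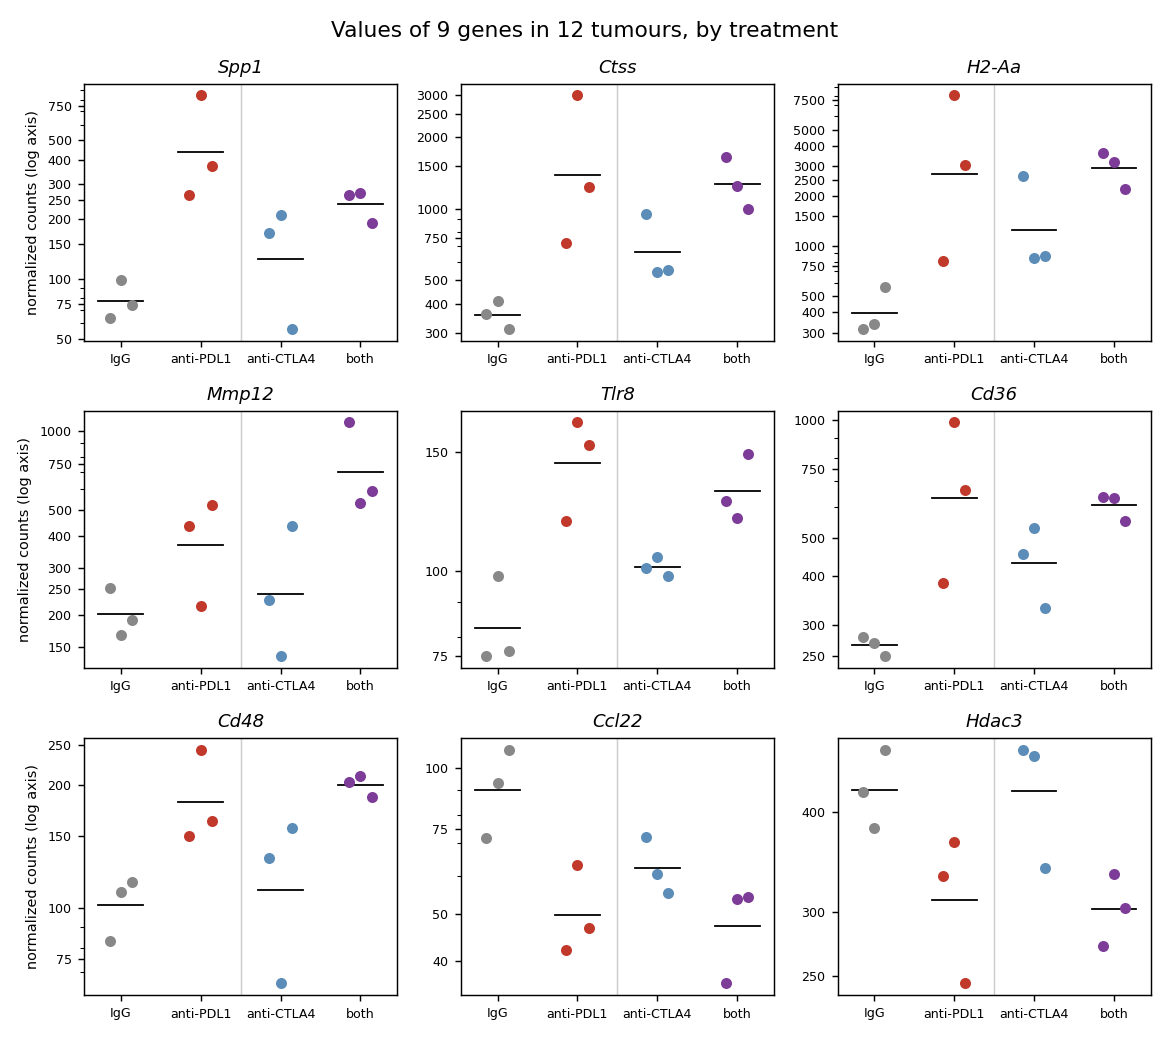
Normalized counts (log axis) of 9 genes in each of the 12 tumours, by treatment, with a line at the mean on the log scale and a grey rule between the blocks without and with the CTLA4 antibody. In Spp1, Ctss, H2-Aa, Tlr8, Cd36 and Cd48 all 3 anti-PDL1 tumours lie above all 3 IgG tumours, Mmp12 overlaps there, and in Ccl22 and Hdac3 the anti-PDL1 tumours lie below.

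Among secreted factors, Spp1, which encodes osteopontin, a matrix protein made by macrophages and injured epithelium, measured 63.7, 99.0 and 74.0 normalized counts in the IgG tumours, 266, 845 and 371 under anti-PDL1, 171, 210.0 and 56.2 under anti-CTLA4 and 266, 273 and 192 under the combination. The PDL1 antibody side was higher in every tumour of the first block, and in the second block only anti-CTLA4 mouse 2 reached into the range of the combination. For Spp1 the log2 fold change was 1.70 (SE 0.44, 3.25-fold, 95% interval 1.65 to 6.42). Mmp12, macrophage elastase, stood at 252, 167 and 191 in the IgG tumours, 436, 216 and 525 under anti-PDL1, 227, 139 and 436 under anti-CTLA4 and 1079, 532 and 592 normalized counts under both antibodies. It was highest under the combination, all 3 tumours of which exceeded the 3 anti-CTLA4 tumours, and anti-PDL1 mouse 2 lay within the IgG range. The log2 fold change was 1.20 (SE 0.34, 2.30-fold). The collagen, matrix and fibroblast list that holds both had a median of -0.05 over 13 measured members: 3 were higher at an unadjusted p under 0.05 (Col6a3 at 0.48 beside these) and 1 was lower, Col17a1, a hemidesmosome collagen of epithelia, at -0.85 (SE 0.29), and -0.44 with every library raised to a common floor at the highest limit.

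Receptors of myeloid cells followed. Tlr8, an endosomal sensor of single-stranded RNA, had values of 75.0, 98.4 and 76.2 under IgG, 119, 166 and 154 under anti-PDL1, 101, 105 and 98.3 under anti-CTLA4 and 127, 120.1 and 149 under the combination. It was the only gene of 770 (0.130%) whose 6 values with the PDL1 antibody all lay above its 6 values without it, and none (0.00%) had all 6 below. Its difference was modest, 1.50-fold (log2 0.59, SE 0.16, 95% interval 1.18-fold to 1.92-fold). Cd36, a scavenger receptor for oxidized lipids and fatty acids on macrophages and endothelium, measured 279.7, 269 and 249.5 normalized counts in the IgG tumours, 383, 988 and 665 under anti-PDL1, 456, 530.2 and 330.4 under anti-CTLA4 and 637, 631 and 554 under the combination. Both pairs of groups were apart, and anti-CTLA4 tumours lay above all IgG tumours as well. The log2 fold change was 0.87 (SE 0.24, 1.82-fold).

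Cd48, a surface protein of blood cells that binds the NK and T cell receptor CD244, stood at 83.0, 109.7 and 116 in the IgG tumours, 149.8, 244 and 164 under anti-PDL1, 133, 65.6 and 157 under anti-CTLA4 and 203, 209.8 and 186 normalized counts under both antibodies. Its lowest value was that of anti-CTLA4 mouse 2, and the log2 fold change of 0.83 (SE 0.23) was 0.51 without the 3 libraries of high hepatocyte score. Separation of the groups within both blocks was found for 5 genes higher with the PDL1 antibody (0.649%), Ctss, Tlr8, Cd36, Cd48 and Fcgr4, and for 2 lower (0.260%), Ccl22 and Hdac3. Fcgr4, an activating receptor for IgG on macrophages and neutrophils and chosen after its values were seen, had values of 118, 154 and 146 under IgG, 156, 614 and 229 under anti-PDL1, 216, 110.2 and 165 under anti-CTLA4 and 339, 279.7 and 299 under the combination. The contrast gave a log2 fold change of 0.98, with a 95% interval of 0.29 to 1.66.

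The macrophage and monocyte list had 14 measured members, all above the floor in every library. Of these, 12 had a log2 fold change above 0, 2 were higher at an unadjusted p under 0.05 and none lower, and the median was 0.45, or 0.23 without anti-PDL1 mouse 2 and 0.28 without the 3 libraries of high hepatocyte score. Among the 519 genes above the floor in all libraries, 52.2% were above 0 and 7.13% were higher at that p. Cd84, an adhesion receptor of the SLAM family, gave 0.61 (SE 0.20), and Adgre1, which encodes the macrophage marker F4/80, gave 0.79 (SE 0.33, adjusted p = 0.419). Other members ranged widely: Marco, a scavenger receptor of Kupffer cells, gave 1.31 with an SE of 1.03, and Cd163, a haemoglobin scavenger receptor, gave -0.57 with an SE of 0.51. In bulk tumour RNA, more cells of a type and more RNA per cell cannot be told apart. The list score was 7.52 to 8.87 with the antibody and 7.34 to 8.64 without it, so the ranges overlapped.

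Chemokines pointed both ways, 13 members above 0 and 13 below, with a list median of 0.01. At an unadjusted p under 0.05, 4 of 26 were higher and 1 was lower, against 5.32% and 5.45% of all genes. Ccl22, made by dendritic cells and macrophages and the attractant of CCR4-bearing regulatory T cells, measured 71.7, 93.3 and 109 normalized counts in the IgG tumours, 42.0, 63.0 and 46.7 under anti-PDL1, 71.9, 60.4 and 55.2 under anti-CTLA4 and 36.0, 53.8 and 54.3 under the combination. Tumours with the PDL1 antibody lay below those without it in both blocks. Ccl22 gave a log2 fold change of -0.62 (SE 0.18). The higher members were the monocyte attractants Ccl12 (0.80, SE 0.25), Ccl2 (0.82) and Ccl8 (0.68), and Cxcl14 (0.64), the last 3 chosen after their values were seen. Ccl12 was at the floor in anti-CTLA4 mice 1 and 2, and with every library raised to the highest limit its difference was 0.17. Cxcl9, the interferon-gamma induced attractant of CXCR3-bearing T cells, stood at 46.0, 48.4 and 47.5 in the IgG tumours, 31.5, 712 and 66.4 under anti-PDL1, 283, 78.7 and 113 under anti-CTLA4 and 304, 201 and 198 normalized counts under both antibodies. Anti-PDL1 mouse 1 was below all IgG tumours and mouse 2 was the highest of the 12, while the IgG tumours lay close together. The log2 fold change was 1.01 (SE 0.66, adjusted p = 0.675), and 0.40 without anti-PDL1 mouse 2.

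Interferon-inducible genes had positive list medians in the 6 against 6 contrast, and none of them passed; within the CTLA4 blocks the medians had opposite signs, 1.14 without and -0.08 with the CTLA4 antibody for type I and 1.06 and -0.24 for interferon-gamma. In the type I interferon list 19 of 22 members had a log2 fold change above 0. The background was 45.2% of all genes and 52.2% of those above the floor in all libraries. At an unadjusted p under 0.05, 2 members were higher. They were Oas1a, an RNA-sensing oligoadenylate synthetase, at 1.06 (SE 0.39, adjusted p = 0.337), and Ifit2, a binder of foreign RNA, at 0.84 (SE 0.36, 0.52 without anti-PDL1 mouse 2). Oas1a had values of 137, 96.2 and 83.9 under IgG, 146, 742 and 249.7 under anti-PDL1, 328, 176 and 145 under anti-CTLA4 and 307, 296 and 321 under the combination. The interferon-gamma list had 11 of 17 members above 0 and none at an unadjusted p under 0.05. Its guanylate-binding proteins gave the largest values, each with at least 1 IgG library at the floor: Gbp2b at 1.81 (SE 0.83, 1.13 without anti-PDL1 mouse 2) and Gbp3 at 1.42 (SE 0.64, 0.84 with a common floor). The list medians were 0.55 for type I and 0.65 for interferon-gamma, and were 0.17 and 0.28 without anti-PDL1 mouse 2.

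For MHC class I and antigen processing 12 of 17 members were above 0. The background was 45.2% of all genes and 52.2% of those above the floor in all libraries. The list median was 0.48, from 1.31 without and -0.33 with the CTLA4 antibody. It was -0.03 without anti-PDL1 mouse 2, 0.18 without anti-CTLA4 mouse 3 and 0.28 without IgG mouse 3. H2-Q1, a non-classical class I gene, was the 1 member at an unadjusted p under 0.05 and was lower (-0.99, SE 0.40, at the floor in 4 libraries, and -0.38 with a common floor). H2-K1 was at 20 in all 12 libraries. B2m, the shared light chain of class I, was chosen after its values were seen and measured 4583, 3490.1 and 2406 normalized counts in the IgG tumours, 8991, 134400.0 and 30071 under anti-PDL1, 31771, 40021 and 4913 under anti-CTLA4 and 15189.8, 38292 and 11775 under the combination. Its log2 fold change was 1.67 (SE 0.88, adjusted p = 0.534). The 3 highest B2m values were those of anti-PDL1 mouse 2, anti-CTLA4 mouse 2 and combination mouse 2, which were also the highest in hepatocyte score within their groups.

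**Figure D2:**
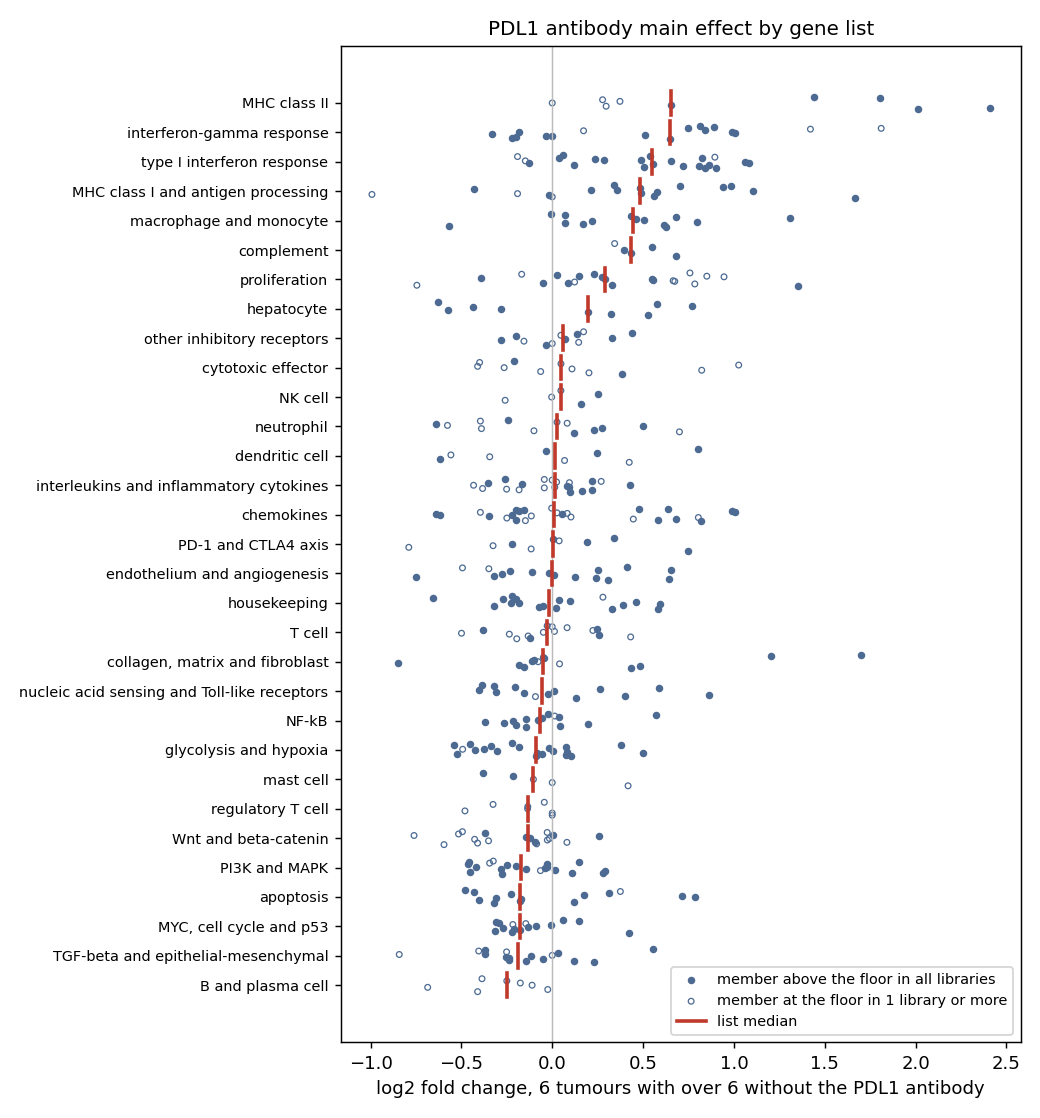
Log2 fold change of every measured member of 31 gene lists, 6 tumours with over 6 without the PDL1 antibody, with filled points for members above the floor in all 12 libraries, open points for the others and a red bar at the list median. Class II, interferon, class I and macrophage lists have the highest medians, 0.66 to 0.45, and B and plasma cell genes the lowest, -0.25.

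The genes of the targeted axis did not move as a group: of 9 measured members 5 had a log2 fold change above 0, the median was 0.01, and 1 was lower at an unadjusted p under 0.05. Cd274, the target, stood at 81.4, 83.2 and 69.5 in the IgG tumours, 80.8, 424 and 127 under anti-PDL1, 216, 89.2 and 124 under anti-CTLA4 and 199.6, 174 and 172 normalized counts under both antibodies. Anti-PDL1 mouse 1 lay inside the IgG range and mouse 2 was the highest of the 12. The log2 fold change was 0.75 (SE 0.38, 95% interval -0.11 to 1.61, adjusted p = 0.515), and 0.41 without anti-PDL1 mouse 2. An antibody acts on the protein, so this transcript is no check of the treatment labels.

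Pdcd1lg2, which encodes PDL2, the other ligand of PD-1, had values of 74.2, 89.4 and 58.5 under IgG, 42.7, 20 and 25.8 under anti-PDL1, 58.5, 20 and 41.2 under anti-CTLA4 and 33.0, 20 and 44.4 under the combination. Every anti-PDL1 tumour was listed below every IgG tumour, and the second block overlapped. Its fitted difference was -0.79 (SE 0.34, adjusted p = 0.428), and with a common floor at the highest limit -0.26. Pdcd1, the receptor PD-1, was at the floor in 6 libraries, all 3 under anti-PDL1 included, and its listed values of 22.6 to 47.5 under IgG and up to 55.0 under the combination gave a fitted difference of -0.12. Ctla4 was likewise at the floor in 6 libraries, all 3 anti-PDL1 tumours among them, with a fitted difference of -0.33, -0.16 without IgG mouse 2. Cd80, the ligand shared by CTLA4 and CD28, lay between 44.0 and 73.5 with and 45.9 and 74.2 without the PDL1 antibody, and gave 0.01 with a 95% interval of -0.38 to 0.39.

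Lymphocyte transcripts were low throughout. Of 15 T cell genes, 4 were above the floor in all 12 libraries, 6 had a log2 fold change above 0 and none reached an unadjusted p under 0.05, with a list median of -0.03. Cd4, the coreceptor of helper T cells, measured 50.8, 70.8 and 108 normalized counts in the IgG tumours, 102, 96.7 and 72.6 under anti-PDL1, 94.4, 81.4 and 108 under anti-CTLA4 and 144, 98.6 and 94.7 under the combination. The groups overlapped, and the log2 fold change was 0.26 (95% interval -0.21 to 0.73, adjusted p = 0.787), 0.14 without IgG mouse 1. Cd8a, the coreceptor of cytotoxic T cells, was listed at 25.0, 31.5 and 37.5 under IgG and at 20 in 8 of the 9 other libraries, and combination mouse 3 stood at 26.6. Foxp3, the regulatory T cell factor, was at 20 in all 12.

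Cytotoxic genes gave 1 higher and 1 lower of 11 at an unadjusted p under 0.05, with a median of 0.05. Nkg7, a granule membrane protein of NK and CD8 T cells, was the higher one at 0.82 (SE 0.32, adjusted p = 0.374), 0.46 without the 3 libraries of high hepatocyte score. Gzmb, granzyme B, stood at 35.5, 39.9 and 34.2 in the IgG tumours, 33.5, 63.0 and 46.7 under anti-PDL1, 58.5, 20 and 37.4 under anti-CTLA4 and 36.0, 41.2 and 34.5 normalized counts under both antibodies. Its groups overlapped, and the log2 fold change was 0.20 (95% interval -0.32 to 0.73, adjusted p = 0.873), 0.04 without anti-CTLA4 mouse 2, 0.09 without anti-PDL1 mouse 2 and 0.37 without anti-CTLA4 mouse 1. Ifng was the lower one: the IgG tumours were listed at 29.8, 43.3 and 36.4 normalized counts and all 9 others at 20. All 7 measured B and plasma cell genes had negative fitted differences, with 3 at an unadjusted p under 0.05 (Cd79a, Tnfrsf17 and Pnoc), but 5 of the 7 lay at the floor in at least 6 libraries and none was above it in all 12. Over the whole panel 397 of 770 genes were below 0 and 5.45% were lower at that p.

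Hdac3, a histone deacetylase of the nuclear corepressor complex, had values of 424, 382 and 478 under IgG, 333, 368 and 245 under anti-PDL1, 479, 469.8 and 341 under anti-CTLA4 and 272, 335 and 304 under the combination. Tumours with the antibody lay below in both blocks, and the difference was 0.72-fold (log2 -0.47, SE 0.14). Ndufa4l2, a HIF-induced mitochondrial protein, measured 55.6, 55.1 and 59.6 normalized counts in the IgG tumours, 30.9, 44.1 and 34.4 under anti-PDL1, 47.2, 70.9 and 64.6 under anti-CTLA4 and 49.2, 43.0 and 49.3 under the combination. Anti-CTLA4 mouse 1 lay inside the range of the combination. Its log2 fold change was -0.49 (SE 0.13), -0.18 with a common floor, and Hif1a, the oxygen-regulated subunit of HIF-1, gave -0.38 (SE 0.13). The hypoxia and glycolysis list as a whole had 7 members above 0 and 14 below, a median of -0.09, and 2 of 21 lower at an unadjusted p under 0.05 (Hif1a and the lactate transporter Slc16a1). Of all genes 5.45% were lower at that p.

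Tcf3, the E-protein E2A of lymphoid development, stood at 78.2, 84.9 and 67.3 in the IgG tumours, 46.0, 46.2 and 43.0 under anti-PDL1, 58.5, 73.5 and 40.2 under anti-CTLA4 and 44.0, 20 and 40.5 normalized counts under both antibodies. All anti-PDL1 tumours lay below all IgG tumours. The difference on the log2 scale was -0.75 (SE 0.21), and -0.37 with a common floor. Snai1, a repressor of epithelial genes, gave -0.84 (SE 0.24) with anti-PDL1 mouse 2 at the floor, and -0.37 with a common floor. Of the PI3K and MAPK list 15 of 20 members were below 0 and 3 were lower at an unadjusted p under 0.05: Rps6kb1, the S6 kinase, at -0.42, Nras at -0.46 and Fosl1, the last chosen after its values were seen and at the floor in 9 libraries. The Wnt list had 15 of 18 members below 0 and 4 lower at an unadjusted p under 0.05, Dkk1, Jup, Wnt3a and Wnt10a, all of which lay at the floor in at least 7 libraries. For both lists the background was 397 of 770 genes below 0 and 5.45% lower at that p. Abcf1, a translation factor often used as a reference gene, was higher with the antibody at 0.58 (SE 0.16, 1.50-fold). Of the 18 housekeeping genes, with a median of -0.02, 2 were higher and 1 was lower at an unadjusted p under 0.05, Tlk2 at -0.65 (SE 0.22). Their mean log2(value + 1) was 9.24 to 9.33 with and 9.24 to 9.27 without the antibody. Whether the deposited values were scaled on these genes, the labels do not say, so their median is no check of the scaling.

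Myc, the driver gene, had values of 126, 103 and 80.6 under IgG, 119, 523 and 125 under anti-PDL1, 171, 215 and 119.8 under anti-CTLA4 and 129.9, 181 and 146 under the combination. Its log2 fold change was 0.42 (SE 0.40, adjusted p = 0.837), and 0.05 without anti-PDL1 mouse 2. Whether the probe reads the endogenous gene, a transgene or both, the sources do not say. Mki67, a marker of cycling cells, measured 2521, 2152 and 1251 normalized counts in the IgG tumours, 4608, 779.5 and 3495 under anti-PDL1, 1214, 57.7 and 2327 under anti-CTLA4 and 3770.3, 2612 and 2539 under the combination. Anti-CTLA4 mouse 2, at 57.7, was lower than every other tumour by a wide margin. The log2 fold change of 1.35 had an SE of 0.89 (adjusted p = 0.675), and it was 0.52 without that mouse.

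Of 21 proliferation genes, 17 had a log2 fold change above 0 and none reached an unadjusted p under 0.05. The background above 0 was 45.2% of all genes and 52.2% of those above the floor in all libraries. The median of the proliferation list was 0.29 in the 6 against 6 contrast, -0.51 without and 1.32 with the CTLA4 antibody. It was -0.12 without anti-CTLA4 mouse 2 and 0.83 without anti-PDL1 mouse 2. The proliferation score ranged from 6.63 to 9.32 with the PDL1 antibody and from 5.78 to 9.03 without it. The hepatocyte list ran the other way, 1.65 without and -0.93 with the CTLA4 antibody, with 5 of 9 members above 0 over all 12 tumours and a median of 0.20 that ranged from -0.34 to 0.83 as single libraries were left out. The hepatocyte score was 11.86 ± 1.07 with the PDL1 antibody and 11.80 ± 1.26 without it (SD, 6 tumours each). High hepatocyte and low proliferation scores fell in the same libraries, since anti-PDL1 mouse 2 and anti-CTLA4 mice 1 and 2 had the 3 lowest proliferation scores.

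**Figure D3:**
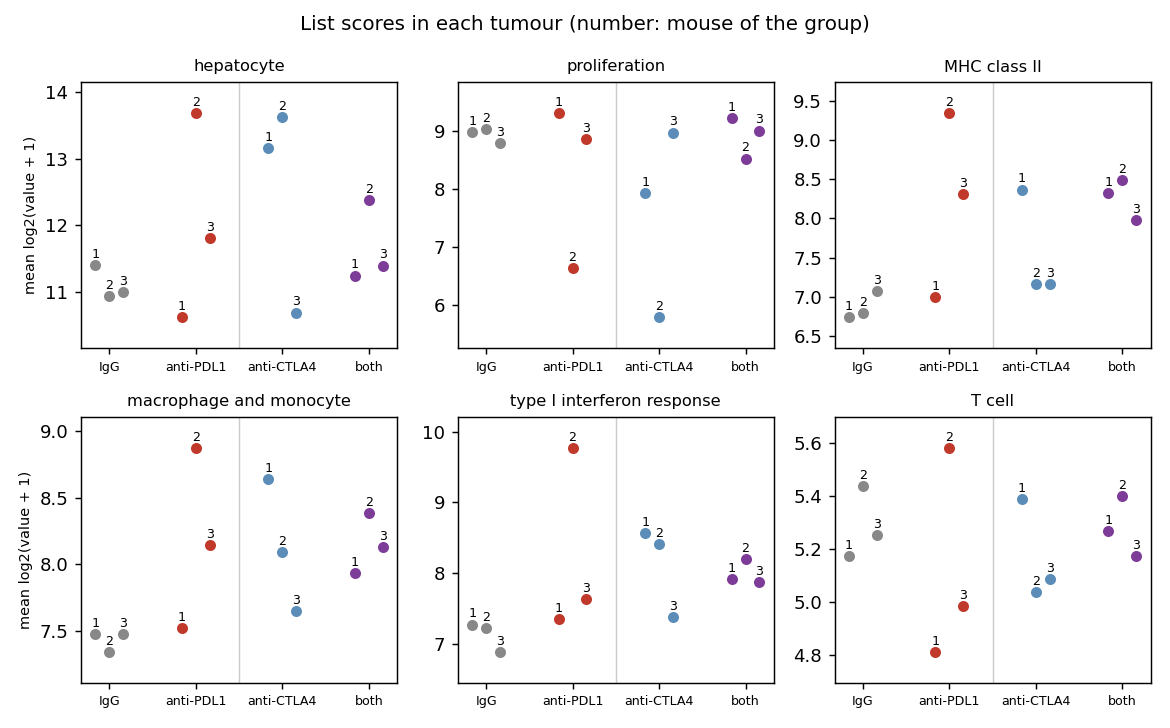
List scores, the mean log2(value + 1) of the measured members, of 6 gene lists in each tumour by treatment, with the mouse number beside each point. The 3 tumours with the highest hepatocyte scores are anti-PDL1 mouse 2 at 13.68 and anti-CTLA4 mice 2 and 1 at 13.62 and 13.15, and their proliferation scores are the 3 lowest.

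The contrast was refitted with the hepatocyte score as a covariate, which removes the part of each gene that follows the score across tumours. Anti-PDL1 mouse 2 and anti-CTLA4 mice 1 and 2, highest in score, also had the highest normalization factors and floor limits. Combination mouse 2 came next in score, factor and limit. The score was itself measured in tumours after treatment. Whether the covariate adjusted for tissue content or for library scaling was not tested. The median residual SD fell from 0.588 to 0.315, and 19 genes passed an adjusted p of 0.05, 14 of them higher and 5 lower with the PDL1 antibody. Fold changes scarcely differed from those above, and their errors were smaller. In limma with the covariate, Spp1 gave 1.67 (SE 0.19, adjusted p = 0.00685) and Cd36 0.85 (SE 0.11, adjusted p = 0.00855). Nearer the threshold were Mmp12 (adjusted p = 0.0310), Ctss (0.0420), H2-Aa (0.0477) and Tlr8 (0.0477). The NK and T cell receptor gene Klrk1, at the floor in all 3 IgG libraries, also passed in this fit (adjusted p = 0.0420). Without the covariate Klrk1 gave 1.03, and 0.36 with a common floor. The other 7 higher genes were chosen after their values were seen: H2-Ab1 (2.36), B2m (1.60), Pla1a (1.20), a phospholipase, Ptprc (1.03), which encodes the pan-leukocyte marker CD45, Cybb (0.83), the phagocyte oxidase subunit, Tfrc (0.64), the transferrin receptor, and Elob (0.51), an elongin subunit.

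Lower in that fit were Rps6kb1 (-0.41), Slc16a1 (-0.48), Glul (-0.48), and, chosen after their values were seen, Tapbpl (-0.46), a homologue of tapasin, and Clec14a (-0.61), an endothelial lectin. Glul, glutamine synthetase of the hepatocytes around the central vein, is itself 1 of the 9 genes of the score. The class II list had 3 of 9 members past the threshold, Ctss, H2-Aa and H2-Ab1, and the macrophage list 0 of 14. Leaving out the 3 libraries of high hepatocyte score was a selection made after the data were seen. It kept anti-CTLA4 mouse 3 as the only tumour of its group, so effect sizes alone are given. Spp1 gave 2.03, and Isg15, an interferon-induced ubiquitin-like modifier chosen after its values were seen, gave 0.91. Ikzf2, the Helios factor of regulatory T cells, gave -0.85 and Slc16a1 -0.75, both with 5 of the 12 libraries at the floor. In the contrast without the covariate, the differences of Ikzf2 and Slc16a1 were both 0 with every library raised to a common floor.

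**Figure D4:**
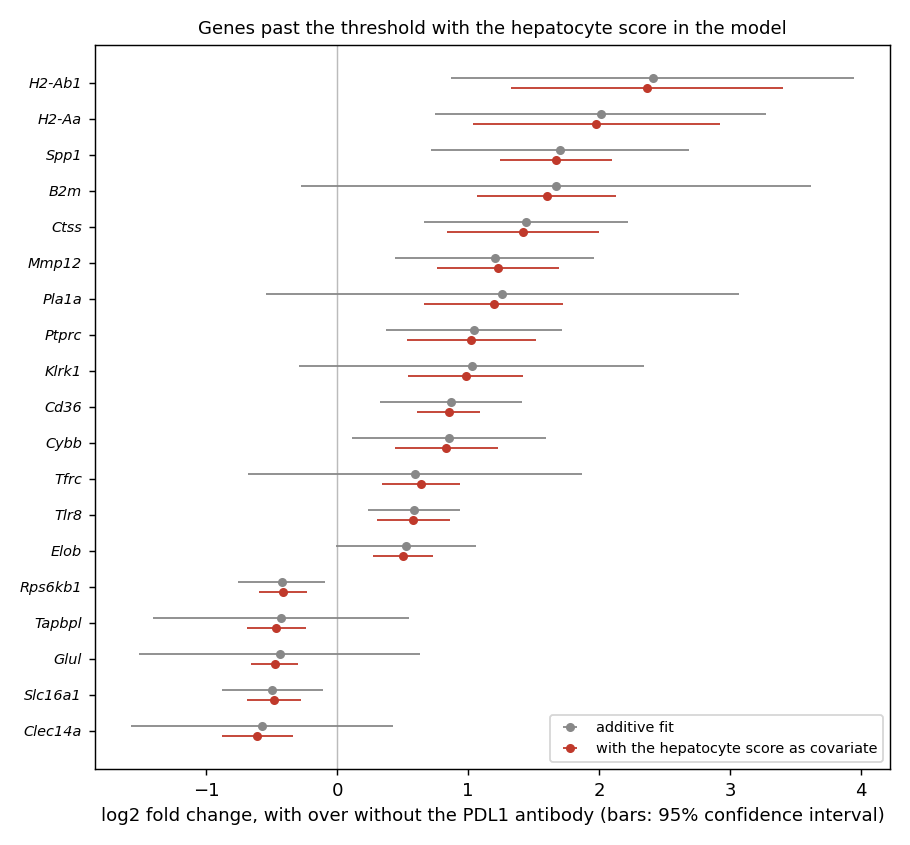
Log2 fold changes with 95% confidence intervals of the 19 genes past the threshold once the hepatocyte score was in the model, with over without the PDL1 antibody, in the fit with the CTLA4 block alone (grey) and with the score added (red). The points lie close together, for Spp1 1.70 and 1.67 and for B2m 1.67 and 1.60, and the red intervals are narrower.

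The contrast averages the effect of the PDL1 antibody without and with the CTLA4 antibody. Both were fitted with 1 mean per group, and the 2 comparisons share no library. Anti-PDL1 against IgG gave 23 genes past an adjusted p of 0.05 (2.99%), 2 higher (0.260%) and 21 lower (2.73%), with 146 (19.0%) at an unadjusted p under 0.05. The combination against anti-CTLA4 gave none with limma (0.00%), and 33 genes (4.29%) at an unadjusted p under 0.05, 13 higher (1.69%) and 20 lower (2.60%). Over the 519 genes above the floor in all libraries the log2 fold changes of both effects had a Pearson r of -0.23, and 192 had the same sign, given as a description since genes of 1 library are not independent. The median gene stood at 0.32 without and -0.22 with the CTLA4 antibody.

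The 2 genes that rose under anti-PDL1 against IgG were Spp1 and Ifngr1, the ligand-binding chain of the interferon-gamma receptor. In limma Spp1 rose by 2.48 (SE 0.55, adjusted p = 0.0452) and Ifngr1 by 1.49 (SE 0.29, adjusted p = 0.0302). Both were above the floor in all 12 libraries, and neither passed when only the 519 such genes were tested. Ifngr1 stood at 168, 139 and 128 in the IgG tumours, 270.0, 593 and 418 under anti-PDL1, 342, 362 and 288 under anti-CTLA4 and 288, 359 and 229.9 normalized counts under both antibodies. All anti-PDL1 tumours were above all IgG tumours, while combination and anti-CTLA4 tumours overlapped, and the effect with the CTLA4 antibody was -0.20 (adjusted p = 0.848). Spp1 gave 0.92 there (adjusted p = 0.733), and for neither gene did the difference between the effects pass. Ihh, a hedgehog ligand, had effects of 0.71 without and -1.35 with the CTLA4 antibody, and that difference did not pass either.

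**Figure D5:**
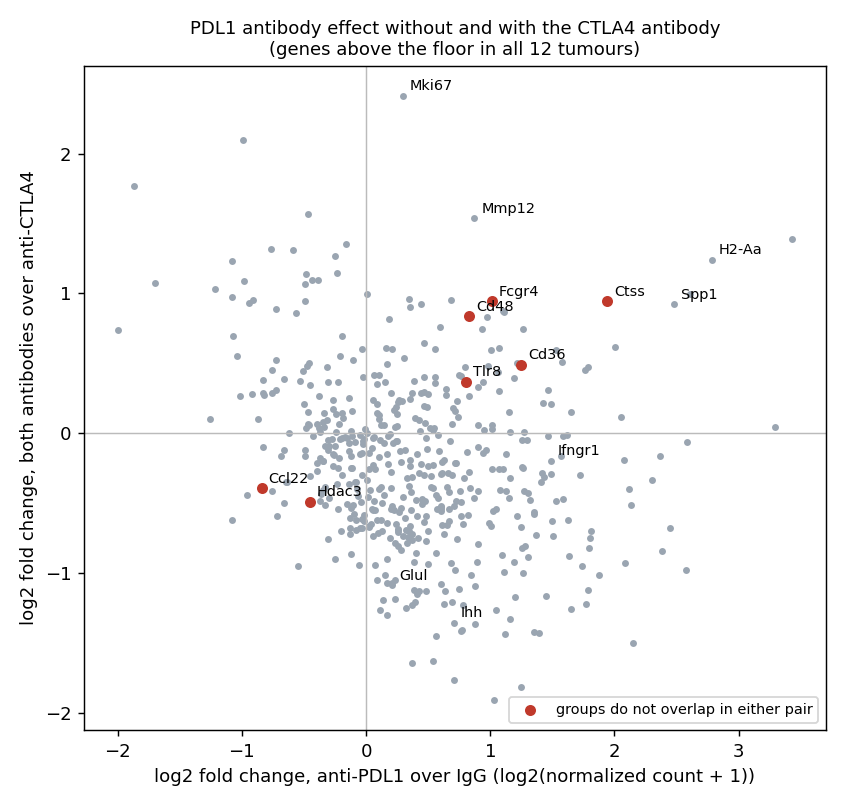
Log2 fold change of the PDL1 antibody without the CTLA4 antibody (anti-PDL1 over IgG, x axis) against that with it (both antibodies over anti-CTLA4, y axis) for the 519 genes above the floor in all 12 tumours, with red points where the 3 tumours of each group do not overlap in either comparison. The red points Ctss, Tlr8, Cd36, Cd48 and Fcgr4 lie above 0 on both axes and Ccl22 and Hdac3 below, while the cloud as a whole tilts downward (Pearson r -0.23).

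The 21 genes that fell under anti-PDL1 had IgG means of only 28.7 to 59.4 normalized counts. Of these, 18 were at the floor in all 3 anti-PDL1 tumours and 12 in all 6 tumours that received the CTLA4 antibody, so the second comparison held no measurement of them. Every anti-PDL1 library also held more floored genes over the whole panel than any IgG library. Values at the floor have no spread, which shrinks the error behind these 21 calls. Il6, an acute-phase cytokine, was listed at 34.7, 33.2 and 36.4 under IgG and at 20 in the other 9 libraries, which makes it at least 1.27-fold lower under anti-PDL1. Il17a, a neutrophil-recruiting cytokine, was at least 1.36-fold lower by the same measure, Ifng at least 1.32-fold, Pnoc at least 1.27-fold and Tnfrsf17, the plasma cell receptor BCMA, at least 1.05-fold. These bounds hold for the group mean. The limit of anti-PDL1 mouse 2, 42.0, lay above every IgG value of Il6, Il17a, Pnoc and Tnfrsf17, so that tumour alone shows no fall in them. Dkk1, a secreted Wnt antagonist chosen after its values were seen, was at least 2.13-fold lower. Restricting the test to the 519 genes above the floor in all libraries left 0 calls in this comparison.

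A test of the difference between both effects gave 10 genes at an adjusted p of 0.05 (1.30%), with 106 (13.8%) at an unadjusted p under 0.05. All 10 were among the 21 above, 8 were at the floor in all 6 tumours that received the CTLA4 antibody, and none of the 519 genes above the floor passed (0.00%). Taking the average of the 2 effects from the fit with 1 mean per group called 9 genes lower with the PDL1 antibody (1.17%), namely Cd70, Dkk1, Ifng, Il17a, Il6, Jup, Pnoc, Tcl1 and Tnfrsf17, 8 of which had no measured value in any tumour that received the CTLA4 antibody. Outside IgG, measured values of these 9 genes were 21.5 and 20.7 for Dkk1 in anti-CTLA4 mouse 3 and combination mouse 3, and 25.8 for Cd70 in anti-PDL1 mouse 3.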

How the data were processed

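The unit of the table is signal: normalized barcode counts that the authors deposited, 1 column per mouse, from the nCounter mouse IO360 panel per the labels. No label or header names the software or the method of normalization. Above the floor of 20, at least 99.84% of the genes of each library were whole multiples of 1 step, which gives the library's factor (0.562 to 2.62) and its recovered total. The 14 control probes were not tested. All 770 gene names were matched to RefSeq's GRCm38.p6 table, 764 as symbols and 6 as synonyms, for names alone.

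A linear model of log2(value + 1) was fitted in limma 3.58.1 (R 4.3.3), including the mean-variance trend, with terms for the PDL1 and CTLA4 antibodies and 9 residual degrees of freedom. Both effects within a CTLA4 block and their difference came from a fit with 1 mean per group and 8 residual degrees of freedom. Tests were two-sided, with Benjamini-Hochberg adjustment over 770 genes and a threshold of 0.05. Fold changes of genes with libraries at the floor are differences of listed values, and folds given as "at least" set the mean of IgG against floor values raised to each library's limit. The fits were tested on simulated data. Each library is 1 mouse, so replicates are biological.

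The comparison, the 31 gene lists (685 entries, 412 genes measured) and the naming rule were chosen with earlier results of these data known. The rule took, for the contrast, the 12 highest and lowest passing genes, filled to 6 per direction by smallest p, 6 more per direction among genes above 20 in all 12 libraries, 4 per direction for the difference between blocks, filled to 2, the 2 members of smallest p in each list among those above 20 in at least 6 libraries, and 13 fixed genes. Genes named to complete a count or a list fall outside it and were chosen after their values were seen: those marked so in the text, Serpina1a, Col6a3, H2-DMa, H2-Eb1, H2-DMb1, H2-K1, Marco, Cd163, Fosl1, Wnt3a, Wnt10a, Jup, Cd70 and Tcl1. A count model was intended as a comparison and was left out, since the deposited signal holds no raw counts. Alternatives changed the filter, pseudocount, floor, scaling, test, covariates and libraries.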

Additional observations from a re-analysis of the deposited data

Results flagged for a closer look

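The test of the difference between the PDL1 antibody effects without and with the CTLA4 antibody passed for 10 genes in limma. For 5 of these genes, named by the rule, the difference on the log2 scale was 0.77 for Il6 (adjusted p = 2.46e-05), 0.87 for Il17a (adjusted p = 0.000113), 0.50 for Tnfrsf17 (adjusted p = 0.000343), 0.77 for Pnoc (adjusted p = 0.000349) and 0.82 for Ifng (adjusted p = 0.0222). All 5 were listed above 20 in the 3 IgG tumours and at 20 in the other 9, so the effect with the CTLA4 antibody is a difference of floor values and no measurement. The 9 floor values have no spread, which shrinks the error and makes these adjusted p-values small. Limits of 45.0 and 52.5 in anti-CTLA4 mice 1 and 2 lay above every IgG value of these 5 genes. The calls therefore do not show that the effects differ. The difference was 0 genes past the threshold when only genes above the floor in all libraries were tested. Groups of 3 tumours were not tested for outlying samples.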

How the results depend on the processing

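Of 27 alternatives for the 6 against 6 contrast, 22 left the count at 0, among them each library left out in turn. Calls appeared with quantile normalization (1, Ctss), array quality weights (1, Spp1), 1 mean per group (9) and the hepatocyte score as a covariate (19). They also appeared without the 3 libraries of high hepatocyte score, a setting chosen after seeing the data. Spp1 had an adjusted p of 0.00685 to 0.567 over its alternatives and Ctss 0.0403 to 0.567. Leaving out the libraries of high factor kept anti-PDL1 mouse 1 and anti-CTLA4 mouse 3 as the only tumours of their groups. Counts of calls within the blocks are therefore not given for that setting, nor without the 3 libraries of high hepatocyte score. The 23 calls without the CTLA4 antibody became 0 with genes above 20 in all libraries and 0 with a mean of at least 50. They became 2 with a common floor, 44 with median scaling, 15 with quantile normalization and 282 with array quality weights. With the hepatocyte covariate they became 72, and with single libraries left out 14 to 32, the fewest without anti-PDL1 mouse 2. The count of 0 with the CTLA4 antibody became 250 with array quality weights, 8 without the libraries of high factor, 4 without the 3 libraries of high hepatocyte score and 0 to 1 with single libraries left out. The 10 calls for the difference became 0 under both filters, the common floor and median scaling, and 1 with quantile normalization. They became 337 with array quality weights, 6 with the hepatocyte covariate and 5 to 24 with single libraries left out. Both filters test fewer genes and the omissions use fewer tumours by construction, the estimate of the array weights stopped before convergence, and the cause of the other changes was not tested.

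Of 2190 values of named genes, 2144 kept their direction and their side of the threshold, 20 came to pass it and 26 changed sign. With a common floor Hdc was 0.048 and Pdcd1 0.011. With median scaling Ncr1 was -0.027 and Cd80 -0.18, with housekeeping scaling Cd80 -0.028, and with quantile normalization Relb -0.0083. Array quality weights gave Il2rb -0.045, Ncr1 -0.12 and Cd80 -0.0020, and the hepatocyte covariate gave Cd80 -0.0014. Without the libraries of high factor Il22ra1 was 0.13, Gzmb -0.10, Il2rb -0.38, Ncr1 -0.24 and Cd80 -0.048, and without the 3 libraries of high hepatocyte score Il2rb was -0.033. With single libraries left out Cd80 ranged from -0.066 to 0.096, Pdcd1 from -0.34 to 0.051 and Ncr1 from -0.15 to 0.33. Of 833 list medians 32 moved beyond the spread between tumours. The difference in floored genes ranged from 8.5 to 32.8 and the log2 normalization factor from -0.28 to 0.16, changing sign in 5 of 12 omissions.

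Whether replicate numbers pair the tumours was not tested. Correlations of deviations between tumours of 1 number ran from -0.61 to 0.75 in 18 pairs, 11 of them over 0.1, and 6 of 12 libraries correlated best with their own number. With the replicate block the counts were 0 for the contrast, 21 without and 0 with the CTLA4 antibody, and 9 for the difference. Recovered counts and the floor limit low genes, since only 519 of 770 had a measured value in all 12 tumours.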

Other observations

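Endothelial genes lay on both sides of 0 in the 6 against 6 contrast. Tie1, a receptor tyrosine kinase of endothelium, was lower on average with the PDL1 antibody at -0.75 (SE 0.27, adjusted p = 0.316), and Cdh5, vascular cadherin, gave 0.64 (SE 0.30, adjusted p = 0.459), from 1.28 without and 0.01 with the CTLA4 antibody, and 0.40 without anti-PDL1 mouse 2. The list had 8 of 16 members above 0 and a median of -0.0020. Tie1 ranged from 127 to 288 normalized counts with the antibody and from 199.9 to 417 without it. All 5 measured complement genes had log2 fold changes above 0, with a median of 0.43 (0.29 without anti-PDL1 mouse 2): C5ar1, the receptor of the anaphylatoxin C5a, gave 0.55 (SE 0.22) at an unadjusted p under 0.05, and C1qa, made chiefly by macrophages, gave 0.68 (SE 0.33, 0.44 without anti-PDL1 mouse 2).

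NK cell genes were near 0 in the contrast, with Ncr1, the receptor NKp46, at 0.16 (-0.15 without anti-PDL1 mouse 2) and Il2rb at 0.25 (0.05 without it), both above the floor in all 12 tumours. Casp1, the inflammasome protease, gave 0.78 in the contrast, from 1.59 without and -0.02 with the CTLA4 antibody, and 0.43 without anti-PDL1 mouse 2. Lgals9, a ligand of the inhibitory receptor TIM-3, gave 1.31 and -0.43 in the same order, and Ripk1, a kinase of the NF-kB and cell death pathways, 1.42 and -0.28. The differences between blocks of these 3 genes did not pass the threshold.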
